A study of Mus musculus with 8 samples.

Results

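The genes described here belong to 4 signalling pathways that act in neural progenitors, Notch, WNT, BMP/TGF-beta and hedgehog. They were chosen by name among the protein-coding genes of a single-cell expression matrix, as the receptors, ligands, transducers, nuclear factors and direct inhibitors whose symbols carry the pathways' usual stems. The rule found 62 members among 9140 genes. The cells were hippocampal neural progenitor cells (NPCs) grown from the dentate gyrus of mouse embryos, littermates taken at embryonic day 18 according to the labels (the methods give an earlier day), with C57BL/6J mothers and Kmt2d+/βgeo fathers. They were profiled with droplet 3′ single-cell RNA sequencing, in which a unique molecular identifier (UMI) marks 1 captured molecule. Day 0 cells were grown with the growth factors EGF and FGF2, and the remaining libraries came from cells 2, 4 and 8 days after both were taken away. Kmt2d+/βgeo cells carried the allele Mll2Gt(RRt024)Byg, a gene trap in 1 copy of the histone methyltransferase gene Kmt2d, and the other cells were labelled C57BL/6J with a wild-type allele. There were 8 libraries with 2534 to 4900 cells each, 1 for each genotype and day, so genotype cannot be told apart from animal, culture or library. Day likewise cannot be told apart from library, or from anything else that the libraries of a day shared. No p-value is given, and each interval is a 95% interval that covers counting error only.

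Notch is a receptor that is cut when a ligand on a neighbouring cell binds it, and its inner part then joins the DNA-binding protein RBPJ and a Mastermind coactivator. WNT ligands bind Frizzled receptors and free beta-catenin from a complex of APC, axin and GSK3 kinases, so that it can act with TCF/LEF factors in place of Groucho (TLE) corepressors. BMP and TGF-beta ligands bind paired receptor kinases that activate SMAD proteins, and Id genes are typical targets. Hedgehog ligands relieve the block that Patched places on Smoothened, which lets GLI factors act. In the hippocampus these pathways are known for the upkeep of progenitors, the choice between neurons and glia, and the growth of the dentate gyrus.

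The matrix held only part of each pathway. Of the Notch ligands Jag1, Jag2, Dll1, Dll3 and Dll4 and the Hes and Hey repressors, 0 had a row, nor did Id1, Id2, Id4, Lef1, Gli1, Smad7, Bmp4 or Bmp7. The levels of those genes were not analysed here. Among the 62 members, 5 were matched by name and are known for other roles, namely Bmp2k, an endocytic kinase, Tgfbrap1, a vesicle tethering protein, Tgfb1i1, a focal adhesion protein, Ptchd4 and Mamld1.

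Some facts of the libraries bear on what follows. Median total UMIs per cell lay between 7926 in the day 8 Kmt2d+/βgeo library and 23219 in the day 0 Kmt2d+/βgeo library. The former held 761 cells with fewer than 3000 UMIs on the matrix genes, against 0 to 25 in each of the others. Such shallow cells are kept in the levels and ratios below, except where cells were thinned or shallow cells are said to be left out. Pairs of libraries shared 0 to 10 cell barcodes. Kmt2d itself had mean normalised counts of 0.193, 0.171, 0.295 and 0.290 on days 0, 2, 4 and 8 in the Kmt2d+/βgeo libraries and of 0.157, 0.197, 0.237 and 0.241 in the wild-type libraries, so its level did not part the labels. The sources used here do not say whether the 3′ ends counted lie beyond the trap. The day 4 libraries were close to each other: 29 genes lay at least 2-fold apart with 1 sign on days 0, 2 and 8, and at day 4 their ratios in that same direction ran from -0.44 to 0.39 on the log2 scale. The day 4 library labelled Kmt2d+/βgeo is therefore named by its label only, and results between genotypes are given for each day apart. As a check of the cell type, 6 of 9 progenitor markers were in the matrix, with a summed level of 67.4 to 141 normalised counts per cell over the libraries. Of the neuron markers 2 of 8 were present (2.87 to 4.17), of the astrocyte markers 5 of 8 (8.20 to 252) and of the oligodendrocyte lineage markers 1 of 8, Olig2 (0.911 to 8.09). Lists for endothelial cells, microglia, mural or meningeal cells and choroid plexus or ependyma had 0 genes in the matrix. The neuron sum was mostly Map2, at 2.86 in Kmt2d+/βgeo and 2.93 in wild type on day 0. Rbfox3 was at 0.00536 and 0.0174 on day 0, 0.17 and 0.176 on day 4, and 0.113 and 0.0472 on day 8. The astrocyte sum was mostly Apoe, at 14.1 and 5.88 on day 0 and 94.7 to 244 on later days. Gja1, Slc1a2 and S100b were also lowest at day 0 in both genotypes, whereas Aldh1l1 in Kmt2d+/βgeo was at 0.648 on day 0 and 0.516 on day 8. What part these cells have in the changes over days was not tested.

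Together the members held 0.428% of matrix UMIs at day 0 in the Kmt2d+/βgeo library and 0.445% in the wild-type library, and 0.634% and 0.516% at day 8. Levels are means over cells of normalised counts, in which every cell was scaled to the same total. Because 3′ counting gives 1 UMI per molecule, they were not divided by gene length. Ctnnb1, which encodes beta-catenin, averaged 6.08 over the 8 libraries and the Groucho family gene Tle5 5.29, followed by Gsk3b (2.67), Id3 (2.54), Apc (2.38), Wnt5a (2.02), Fzd3 (1.83) and Notch1 (1.55). At the other end, Tgfb3, Ltbp1 and Ptchd4 averaged 0.0271, 0.0318 and 0.0146.

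Over the days after growth factor removal, 11 members rose at least 2-fold from day 0 to day 8 in both genotypes, and 0 fell. After thinning each cell to 3000 UMIs, 1 member, Acvr2b, was lower by that rule (-1.14 and -1.275 on the log2 scale), and with no minimum mean Bmper was (-1.25 and -1.07). The 11 were the receptor genes Notch2, Fzd3, Bmpr1b and Acvr1b, the ligand genes Wnt7b, Wnt5b and Tgfb2, the Notch antagonist gene Numbl, the APC relative Apc2, and Bmp2k and Tgfbrap1. A member was compared where its mean was at least 0.1 in either library of both contrasts, which 52 of 62 met, so the share risen was 21.2%. Among all 7572 genes compared, 13.2% were higher and 8.02% lower by the same rule. The median log2 ratio was 0.35 over the 54 members compared in Kmt2d+/βgeo and 0.21 over the 53 compared in wild type, beside 0.11 and 0.04 over all genes compared in each. Acvr1b, Apc2 and Wnt5b lay below the minimum at day 0 in both genotypes, and Bmpr1b in Kmt2d+/βgeo, so they entered only through their higher day 8 level and had to be higher. By counting intervals alone, 23 members were higher in both genotypes, 9 lower in both, 8 opposite, and for 12 an interval included 0, where 38.9% of all genes compared were higher, 33.7% lower and 7.29% opposite. As a difference of mean log2 values per cell, 0 members lay 1 log2 unit apart in both genotypes. Those values add 1 before the log2, so a member with mean counts below 1 in both libraries could not reach 1 unit. Gli2, Acvr1, Maml3, Tgfbr3, Wnt7a, Bmper, Tgfb3, Ptchd4, Ltbp1 and Notch3 were not compared.

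**Figure D1:**
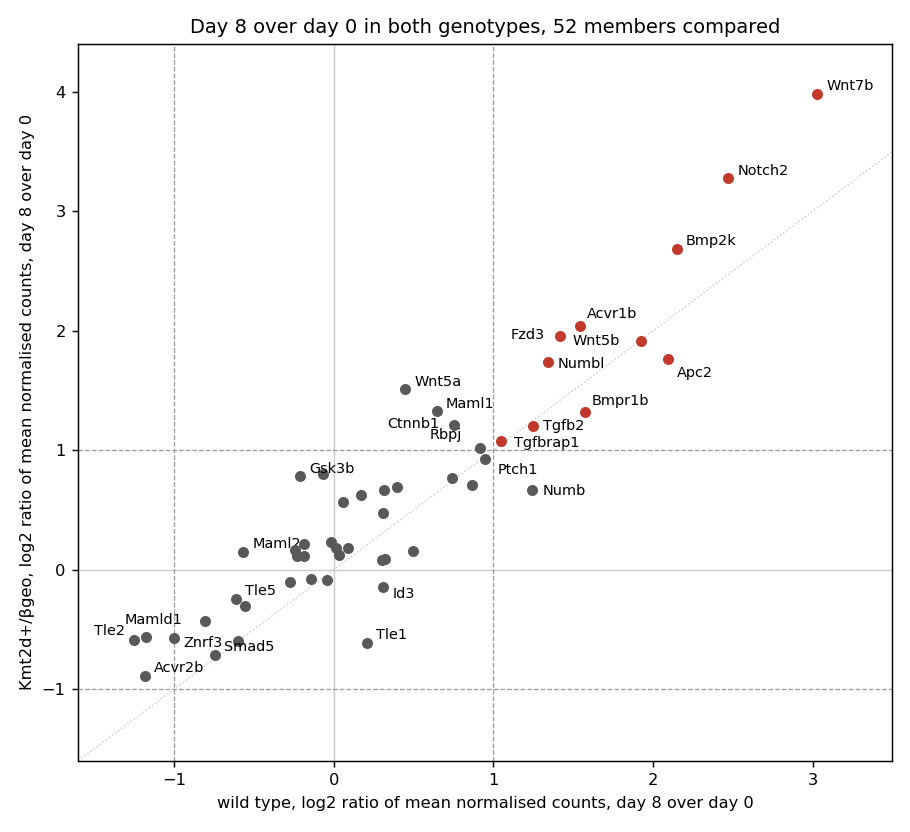
Log2 ratio of mean normalised counts, day 8 over day 0, in wild type (horizontal axis) and Kmt2d+/βgeo (vertical axis), 1 point for each of 52 members. Dashed lines mark 2-fold, the dotted line marks equal ratios, and the 11 red points in the upper right are the members past 2-fold in both genotypes, led by Wnt7b.

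Of these 11 members, 9 had a promoter in the RefSeq table for build GRCm38.p6, and the 5 with a single listed start are shown because each lay at least 2-fold above day 0 at day 8 in both genotypes. Each sequence is the 250 bases before the start, 5′ to 3′ on the gene's strand. Capitals mark matches on either strand to the letters TGGGAA (RBPJ), GGCGCC (a BMP SMAD element, the same on both strands), CTTTGA or CTTTGT (TCF/LEF), GACCACCCA (GLI) and CACNAG (the N-box of Hes proteins), and no matches overlap in them. The windows are Notch2 at chr3:98013288-98013537 on the plus strand, Bmp2k at chr5:96997439-96997688 on the plus strand, Numbl at chr7:27258511-27258760 on the plus strand, Acvr1b at chr15:101173822-101174071 on the plus strand and Tgfb2 at chr1:186705990-186706239 on the minus strand.
Notch2: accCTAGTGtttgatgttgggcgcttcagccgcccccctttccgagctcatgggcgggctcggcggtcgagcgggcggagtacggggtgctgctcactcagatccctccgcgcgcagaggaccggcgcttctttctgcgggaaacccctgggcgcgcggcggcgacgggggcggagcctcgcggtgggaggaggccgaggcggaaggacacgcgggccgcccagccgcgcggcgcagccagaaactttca
Bmp2k: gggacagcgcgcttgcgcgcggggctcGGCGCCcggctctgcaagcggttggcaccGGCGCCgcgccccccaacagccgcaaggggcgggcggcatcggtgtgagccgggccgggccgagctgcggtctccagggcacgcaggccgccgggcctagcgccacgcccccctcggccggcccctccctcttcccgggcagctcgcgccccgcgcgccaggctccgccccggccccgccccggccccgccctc
Numbl: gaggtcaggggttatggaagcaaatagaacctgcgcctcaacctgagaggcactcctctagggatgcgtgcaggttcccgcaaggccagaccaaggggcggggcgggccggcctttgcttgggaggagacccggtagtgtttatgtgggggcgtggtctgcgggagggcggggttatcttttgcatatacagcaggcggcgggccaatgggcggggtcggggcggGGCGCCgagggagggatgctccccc
Acvr1b: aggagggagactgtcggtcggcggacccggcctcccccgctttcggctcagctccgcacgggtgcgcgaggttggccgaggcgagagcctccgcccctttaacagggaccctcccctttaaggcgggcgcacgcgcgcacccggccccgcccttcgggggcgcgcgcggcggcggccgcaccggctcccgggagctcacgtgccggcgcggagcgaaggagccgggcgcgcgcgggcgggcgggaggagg
Tgfb2: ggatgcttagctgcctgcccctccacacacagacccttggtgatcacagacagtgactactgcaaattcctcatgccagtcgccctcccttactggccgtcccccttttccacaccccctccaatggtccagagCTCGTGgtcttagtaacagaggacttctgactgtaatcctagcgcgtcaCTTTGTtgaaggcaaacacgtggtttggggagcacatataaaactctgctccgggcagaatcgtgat
Bmp2k held the SMAD letters at 2 places, first base -223 and -194 from the start, and Numbl at -25. Notch2 held an N-box match at -247, Tgfb2 an N-box match at -116 and a TCF/LEF match at -67, and Acvr1b held 0 matches. Its window was 78.8% G or C.

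The members shared no single one of these motifs. Over the 49 members in the table, counting a gene where any of its starts had a match, 28.6% held the RBPJ letters, 28.6% the SMAD letters, 36.7% the TCF/LEF letters, 30.6% the N-box letters and 0.0% the GLI letters. The same shares over 7256 matrix genes in the table were 23.4%, 21.4%, 23.9%, 38.9% and 0.234%, and over all 27025 genes listed they were 24.1%, 10.8%, 30.8%, 40.1% and 0.255%. A match is a description of letters and not evidence of binding.

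Among the 3 Notch receptors in the matrix, Notch2 rose past 2-fold and Notch1 had the highest mean over the libraries. In the day 8 Kmt2d+/βgeo library Notch2 was above Notch1. Notch2 had mean normalised counts of 0.256, 0.651, 0.568 and 2.48 on days 0, 2, 4 and 8 in the Kmt2d+/βgeo libraries and of 0.120, 0.488, 0.539 and 0.664 in wild type. Both day 0 libraries were the lowest of their genotype, and the day 8 Kmt2d+/βgeo library was far above all others. The day 8 level was 9.69-fold that of day 0 in Kmt2d+/βgeo (log2 ratio 3.28, 3.17 to 3.39) and 5.55-fold in wild type (2.47, 2.34 to 2.61). After cells were thinned to 3000 UMIs, 40.9% of Kmt2d+/βgeo cells (38.8 to 43.0) and 20.1% of wild-type cells (18.7 to 21.5) had a Notch2 UMI at day 8, beside 7.94% and 4.10% at day 0.

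The Notch2 level in the day 8 Kmt2d+/βgeo library was uneven over depth. In its 761 cells below 3000 UMIs the mean was 4.94, and in the remaining cells it was 1.64. Of 52 members compared between these cells, 2 lay at least 2-fold apart, Notch2 and Znrf3 (0.158 and 0.0743), beside 1.47% of 7617 genes. Most of the others were also higher in the shallow cells, such as Bmp2k (1.35 and 0.695) and Gsk3b (4.95 and 2.90). Wnt5b, Tle5, Id3, Bmp1, Ltbp3, Ctnnb1, Bmpr1b, Sufu, Tle2 and Apc2 were lower there. Day 8 Kmt2d+/βgeo levels that include these cells are thus raised for most members, not for Notch2 alone. With shallow cells left out of every library, the log2 ratio of day 8 over day 0 was 2.72 in Kmt2d+/βgeo and 2.47 in wild type, so the rise held in both. The part of damaged cells or free RNA in this was not tested.

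Notch1 levels were 1.17, 1.43, 2.06 and 1.85 in Kmt2d+/βgeo and 1.12, 1.60, 1.82 and 1.39 in wild type. The log2 ratios of day 8 over day 0 were 0.67 (0.60 to 0.74) and 0.32 (0.26 to 0.38), both short of 2-fold. Notch3 stayed between 0.0643 and 0.157.

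Of the Notch cofactors and antagonists, Numbl rose from 0.134 to 0.447 in Kmt2d+/βgeo and from 0.135 to 0.343 in wild type. Numbl and Numb encode adaptor proteins that restrain Notch at the membrane. Numb lay at 0.139, 0.220, 0.222 and 0.220 in Kmt2d+/βgeo and at 0.0952, 0.193, 0.213 and 0.225 in wild type, with a log2 ratio of 0.67 in the former and 1.24 in the latter, so it passed in wild type alone, where its day 0 level was under the minimum and the filter fixed its direction. Rbpj, which encodes the DNA-binding partner of Notch, was just outside with 1.02 (0.90 to 1.14) in Kmt2d+/βgeo and 0.92 (0.81 to 1.02) in wild type, and Tgfbrap1 was just inside with 1.07 and 1.05. The Mastermind coactivators did not move together. Maml1, under the minimum at day 0 in both genotypes, had ratios of 1.33 and 0.65 and Maml2 of 0.15 and -0.57, while Maml3 was not compared.

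WNT ligands included the member with the highest ratios. Wnt7b, a ligand that acts through beta-catenin in the developing brain, had levels of 0.122, 0.816, 1.12 and 1.94 in Kmt2d+/βgeo and of 0.136, 0.851, 1.05 and 1.11 in wild type. Every later library lay well above both day 0 libraries. The ratio of day 8 over day 0 was 15.8-fold in Kmt2d+/βgeo (log2 3.98, 3.85 to 4.12) and 8.16-fold in wild type (3.03, 2.90 to 3.15). At day 2 the log2 ratios to day 0 were 2.74 (2.61 to 2.87) and 2.64 (2.52 to 2.77). The share of thinned cells with a Wnt7b UMI went from 3.99% and 4.45% at day 0 to 22.9% and 25.1% at day 2 and 42.0% and 28.6% at day 8.

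Wnt5b followed a like course at a lower level, 0.0641, 0.171, 0.173 and 0.241 in Kmt2d+/βgeo and 0.0523, 0.158, 0.158 and 0.198 in wild type. Wnt5a, a ligand best known for signalling without beta-catenin, started apart in the genotypes. It lay at 0.873, 1.62, 2.52 and 2.49 in Kmt2d+/βgeo and at 1.67, 2.27, 2.41 and 2.28 in wild type, so day 8 over day 0 gave 1.51 (1.44 to 1.58) and 0.45 (0.40 to 0.50). Wnt7a was scarce, at 0.0297 to 0.0980, and lowest at day 8 in both genotypes.

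Fzd3, the 1 Frizzled receptor gene in the matrix, rose with each collection day. Its levels were 0.833, 1.44, 2.34 and 3.24 in Kmt2d+/βgeo and 0.867, 1.47, 2.17 and 2.31 in wild type, which gave 3.89-fold (log2 1.96, 1.89 to 2.02) and 2.67-fold (1.42, 1.36 to 1.47) at day 8. Znrf3, which encodes a ligase that removes Frizzled from the surface, had log2 ratios of -0.57 and -0.998 at day 8, after 0.67 and 0.56 at day 2.

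In the beta-catenin group, 8 genes were compared, 1 rose and 0 fell. Apc2, a brain relative of APC, rose from 0.0761 to 0.258 in Kmt2d+/βgeo and from 0.0494 to 0.211 in wild type. Ctnnb1 was at 3.77, 6.36, 6.30 and 8.73 in Kmt2d+/βgeo and 4.18, 6.21, 6.09 and 7.05 in wild type. Both series began at their lowest at day 0, and the day 8 ratios were 1.21 (1.18 to 1.25) and 0.75 (0.72 to 0.78), so it passed in Kmt2d+/βgeo alone. Axin2, a feedback inhibitor and common WNT target, was at 0.162, 0.267, 0.213 and 0.281 in Kmt2d+/βgeo and 0.172, 0.298, 0.177 and 0.165 in wild type. The genotypes were close at day 2, with log2 ratios to day 0 of 0.73 (0.59 to 0.86) and 0.79 (0.66 to 0.92), and apart at day 8, with 0.80 (0.60 to 0.99) and -0.07 (-0.23 to 0.10). The kinase gene Gsk3a had -0.60 in both genotypes. Gsk3b, its relative, was at 1.99, 2.26, 3.27 and 3.42 in Kmt2d+/βgeo and at 2.55, 2.77, 2.90 and 2.20 in wild type, and Apc at 1.87, 1.91, 2.87 and 2.03 and at 2.56, 2.84, 2.77 and 2.18.

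The TCF and Groucho genes had a median of -0.09 in Kmt2d+/βgeo and -0.04 in wild type, and 0 of 7 passed in both genotypes. Tle5, a short Groucho relative, was at 7.64, 5.54, 3.74 and 6.45 in Kmt2d+/βgeo and at 6.35, 4.63, 3.79 and 4.15 in wild type, with ratios of -0.24 (-0.28 to -0.21) and -0.61 (-0.65 to -0.58). Tle2 was below its day 0 level on every later day, with day 8 ratios of -0.59 (-0.76 to -0.42) and -1.25 (-1.45 to -1.06). Tle3 had ratios above 0, with 0.71 (0.54 to 0.88) and 0.87 (0.72 to 1.02). Tcf7l2, a TCF factor, was highest at day 4, at 1.57 and 1.43, and returned to 0.828 and 0.967 at day 8.

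**Figure D2:**
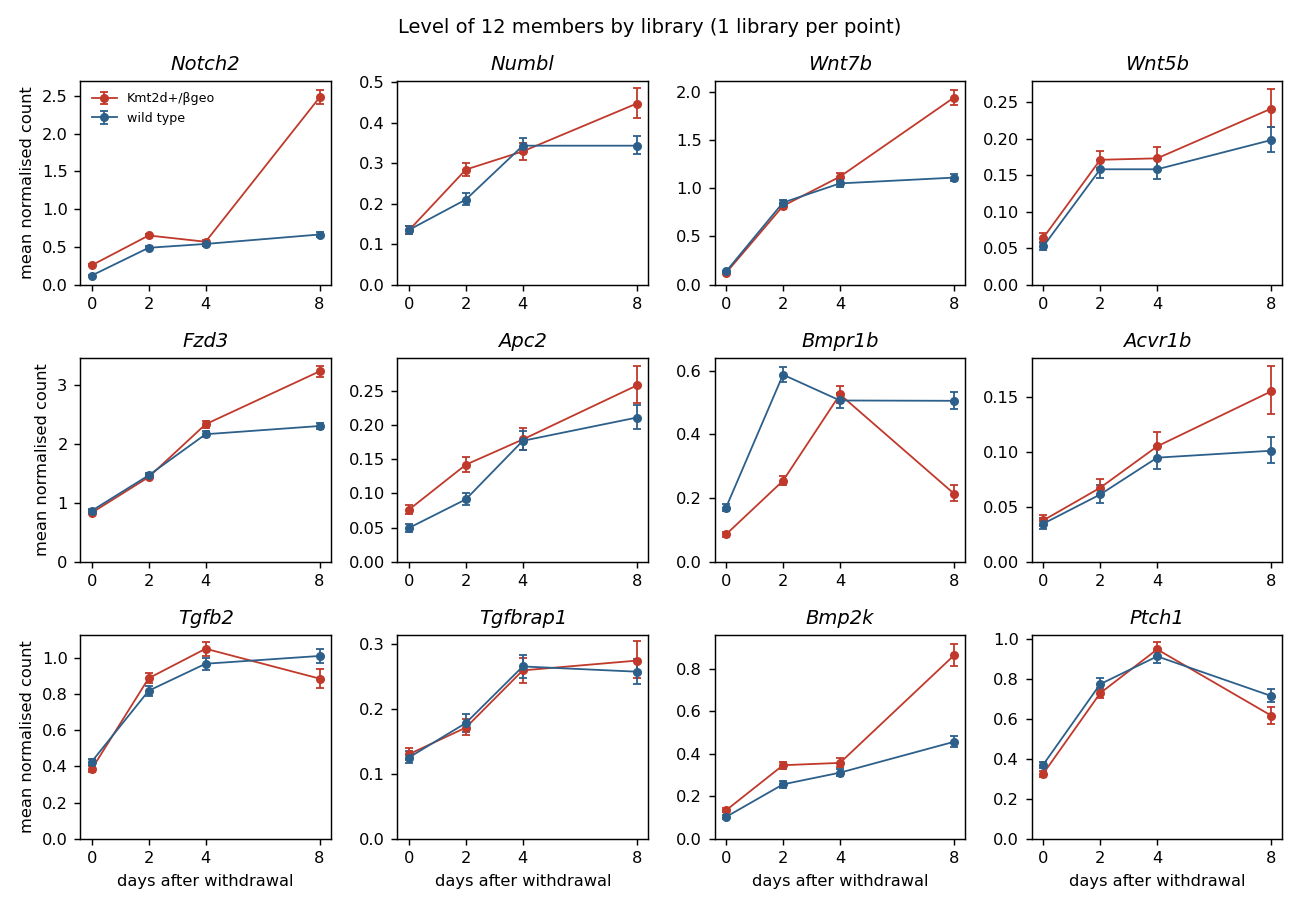
Mean normalised count per cell (vertical axes, from 0) against days after growth factor withdrawal for 12 members, in Kmt2d+/βgeo (red) and wild type (blue), with exact 95% Poisson intervals of the summed UMIs. Each point is 1 library; Notch2, Wnt7b, Fzd3 and Bmp2k were highest in the day 8 Kmt2d+/βgeo library, while Bmpr1b was lower in Kmt2d+/βgeo on days 0, 2 and 8.

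Among BMP and TGF-beta genes the rises were in a ligand and in receptors. Tgfb2 was at 0.385, 0.887, 1.05 and 0.885 in Kmt2d+/βgeo and at 0.426, 0.818, 0.967 and 1.01 in wild type, with day 8 ratios of 1.20 (1.09 to 1.31) and 1.25 (1.16 to 1.33). Bmpr1b, which encodes a type I BMP receptor, was at 0.0857, 0.254, 0.525 and 0.214 in Kmt2d+/βgeo and at 0.170, 0.587, 0.506 and 0.505 in wild type. It lay at least 2-fold above day 0 on each later day in both genotypes, and at day 8 the ratios were 1.32 (1.09 to 1.55) and 1.57 (1.45 to 1.70). Acvr1b, an activin type I receptor gene, went from 0.0376 to 0.155 and from 0.0346 to 0.101.

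The receptor genes Bmpr2, Bmpr1a and Tgfbr1 lay within 2-fold of day 0. Bmpr2, the type II receptor gene, had ratios of 0.69 (0.61 to 0.78) and 0.40 (0.33 to 0.47), Bmpr1a of 0.62 (0.53 to 0.72) and 0.17 (0.10 to 0.24), and Tgfbr1 of -0.11 and -0.28 at day 8. Acvr2b was highest at day 2, with 0.104, 0.262, 0.196 and 0.0561 in Kmt2d+/βgeo and 0.153, 0.252, 0.175 and 0.0673 in wild type. Bmper, a secreted BMP regulator, was at 0.0673, 0.0502, 0.301 and 0.0283 in Kmt2d+/βgeo and at 0.0899, 0.2, 0.307 and 0.0428 in wild type.

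Of the Smad genes 0 of 5 passed 2-fold. Smad1, which carries BMP signals, had ratios of 0.77 (0.66 to 0.87) and 0.74 (0.66 to 0.81), and its relative Smad5 had -0.71 (-0.82 to -0.60) and -0.75 (-0.81 to -0.68), so the ratios of these 2 BMP Smads had opposite signs in both genotypes. Smad5 went from 1.16 and 1.49 at day 0 to 0.707 and 0.885 at day 8, and Smad1 from 0.531 and 0.633 to 0.903 and 1.06. Smad4, the common partner, stayed between 0.730 and 0.894 over all 8 libraries.

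Of the members not yet named, Ltbp3, Bmp1, Dvl3, Smad2, Smad3, Tgfbr2, Axin1, Acvr2a, Mamld1 and Tcf7l1 were compared and lay between 0.0611 and 1.11 in all libraries. Bmp1, a protease gene that frees BMPs from their inhibitors, had day 8 ratios of -0.43 and -0.80, and the other ratios of this group lay between -1.18 and 0.57. Acvr1 was at 0.0542 to 0.0803 and Gli2 at 0.0306 to 0.0731, both too low to be compared.

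Among the hedgehog genes compared, Ptch1, the receptor gene that is itself a hedgehog target, had the largest ratios to day 0 at days 2 and 8. Its levels were 0.326, 0.729, 0.948 and 0.617 in Kmt2d+/βgeo and 0.371, 0.774, 0.913 and 0.715 in wild type. It passed 2-fold at day 2, with log2 ratios of 1.16 (1.07 to 1.25) and 1.06 (0.98 to 1.15), and lay just below it at day 8 with 0.92 (0.79 to 1.05) and 0.95 (0.86 to 1.04). After cells were thinned to 3000 UMIs, Ptch1 no longer passed in both genotypes at day 2. Smo, which encodes Smoothened, had day 8 ratios of 0.47 and 0.31, the inhibitor gene Sufu 0.18 and 0.09, and Gli3 0.23 (0.02 to 0.44) and -0.02 (-0.21 to 0.18).

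At day 2, 6 members had risen in both genotypes and 0 had fallen, out of 49 compared. These were Notch2, Bmpr1b, Bmp2k, Wnt5b, Ptch1 and Wnt7b, or 12.2% of members, where 6.52% of 7303 genes were higher and 4.44% lower. Wnt5b was under the minimum at day 0 in both genotypes, and Bmpr1b in Kmt2d+/βgeo. At day 4, 11 members were higher and 1, Tle2, was lower, out of 51 compared, where 10.2% of 7552 genes were higher and 4.67% lower. Wnt5b, Apc2 and Bmper were under the minimum at day 0 in both genotypes, Bmpr1b in Kmt2d+/βgeo, and Tle2 at day 4 in both, so the filter fixed their directions there. The comparison rests on the day 4 library labelled Kmt2d+/βgeo. In wild type alone, log2 ratios at day 4 were 2.95 for Wnt7b, 2.17 for Notch2, 1.3 for Ptch1 and -2.21 for Tle2.

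Other genes of the pathways, from lists chosen for their roles, were counted by the same rule for day 8 over day 0. Of 18 other Notch genes compared, 5 rose and 0 fell, with a median of 0.48 in Kmt2d+/βgeo and 0.34 in wild type. The largest ratios were those of Dner, which encodes a noncanonical Notch ligand (2.21 and 1.96), and of Kat2b, a histone acetyltransferase gene (1.95 and 1.66). Of 21 other WNT genes 3 rose and 1, the casein kinase gene Csnk1e, fell, and the largest ratios by the mean of both genotypes were those of Celsr2, a planar polarity cadherin gene (2.50 and 2.33), and Lgr4, an R-spondin receptor gene (2.11 and 1.55). Of 13 other BMP and TGF-beta genes 5 rose and 0 fell, and by that mean the largest ratios were those of the co-receptor gene Rgma (2.68 and 2.25) and the ligand gene Gdf11 (1.96 and 1.29). Of 10 other hedgehog genes, the co-receptor gene Boc rose (1.33 and 1.49) and its relative Cdon fell (-2.37 and -2.37). Boc and Lgr4 were under the minimum at day 0 in both genotypes and Cdon at day 8, as were Dner and Kat2b at day 0 in Kmt2d+/βgeo and Celsr1 and Twsg1 at day 0 in wild type, so the filter fixed their directions there. The share of all genes that rose or fell by this rule is that given above, and the 3 of 21 WNT genes and 1 of 10 hedgehog genes that rose are near or below it. Cdon went from 0.108 and 0.152 at day 0 to 0.0209 and 0.0293 at day 8, whereas Boc went from 0.0675 and 0.0574 to 0.170 and 0.161.

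Genotypes were then compared within each day. At day 0, Notch2 and Maml3 lay at least 2-fold apart among 50 members compared, both higher in Kmt2d+/βgeo, where 1.55% of 7117 genes lay that far apart. At day 2, 5 of 53 members did so, Maml3, Tgfb1i1 and Tle2 higher and Bmpr1b and Bmper lower, beside 2.84% of 7364 genes. At day 8, 5 of 50 did so, Notch2, Tgfbr3, Tgfb1i1 and Tle2 higher and Bmpr1b lower, beside 4.87% of 7576 genes. At day 4 the count was 0 of 51, beside 0.0% of 7459 genes. Maml3 at days 0 and 2, Bmper at day 2 and Tgfbr3 at day 8 were under the minimum in the lower genotype, so they were compared only through the higher one and their direction was fixed by the filter. Member ratios had an SD of 0.52, 0.60, 0.08 and 0.55 on the log2 scale at days 0, 2, 4 and 8, and those of all genes had 0.34, 0.38, 0.11 and 0.49.

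Maml3, a Mastermind coactivator gene, had the highest ratio among members compared on days 0 and 2. Its levels in Kmt2d+/βgeo were 0.127 at day 0, 0.232 at day 2 and 0.0934 at day 8, and in wild type 0.0298, 0.0576 and 0.0143. These rest on 731, 1076 and 128 estimated UMIs against 174, 217 and 37. The fold was 4.27 at day 0 (log2 2.09, 1.83 to 2.35) and 4.03 at day 2 (2.01, 1.79 to 2.23), and at day 8, where both levels were under the minimum, the log2 ratio was 2.71 (2.15 to 3.27). At day 4 the levels were 0.00909 and 0.0108. Maml2 had the opposite order at days 0 and 2, with log2 ratios of -0.63 (-0.70 to -0.57) and -0.68 (-0.75 to -0.61), and was near equal at day 8 with 0.08 (-0.04 to 0.20).

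Notch2 was higher in Kmt2d+/βgeo at day 0 (log2 1.10, 0.95 to 1.25), less so at day 2 (0.42, 0.33 to 0.50) and most at day 8 (1.90, 1.81 to 1.99). At day 8 the log2 ratio was 1.31 with shallow cells left out and 1.33 after thinning, beside the 3.74-fold difference over all cells. Bmpr1b was lower in Kmt2d+/βgeo, with log2 ratios of -0.99 (-1.16 to -0.81), -1.21 (-1.31 to -1.10) and -1.24 (-1.44 to -1.05) at days 0, 2 and 8. At day 2, 8.02% of thinned Kmt2d+/βgeo cells (7.27 to 8.82) and 18.1% of wild-type cells (16.9 to 19.3) had a Bmpr1b UMI. Notch2, Maml3 and Bmpr1b all lie on chromosome 3, on GRCm38 at 98013527 to 98150361, 51685907 to 52105076 and 141837136 to 142169425. Of the other members past 2-fold between genotypes, Tgfbr3 lies on chromosome 5, Tgfb1i1 on 7, Bmper on 9 and Tle2 on 10. Whether genes that differ between genotypes gather on any chromosome was not tested.

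The 5 Groucho family members in the matrix did not all differ between genotypes in the same direction. Tle2 was higher in Kmt2d+/βgeo (0.73, 0.63 to 0.83 at day 0, then 1.35, 1.17 to 1.52, and 1.40, 1.16 to 1.63). Tle5, its neighbour on chromosome 10, was higher too (0.27, 0.26 and 0.64), as was Tle3 (0.46, 0.25 and 0.30). Tle4 was lower on the same days (-0.81, -0.88 and -0.85), with levels of 0.652, 0.595 and 0.614 in Kmt2d+/βgeo and 1.14, 1.09 and 1.11 in wild type. Tle1 changed sign, with 0.36, -0.04 and -0.47. The signs of all 5 on days 0, 2 and 8 were the same after thinning, with recentred ratios, without the 20 most abundant genes and without shallow cells. At day 4 the ratios were -0.24 for Tle2, -0.02 for Tle5, -0.03 for Tle3 and 0.09 for Tle4.

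Tgfb1i1 was higher in Kmt2d+/βgeo by log2 ratios of 0.72 (0.62 to 0.82), 1.61 (1.51 to 1.71) and 1.13 (0.959 to 1.303). Tgfbr3, which encodes the co-receptor betaglycan, was scarce at days 0 and 2 and at day 8 had levels of 0.198 and 0.0657 (1.59, 1.3 to 1.89). Bmper at day 2 was at 0.0502 in Kmt2d+/βgeo and 0.2 in wild type (-1.997, -2.22 to -1.78). Wnt5a was lower in Kmt2d+/βgeo at day 0 (-0.93, -0.99 to -0.88), less so at day 2 (-0.49, -0.54 to -0.44) and slightly higher at day 8 (0.13, 0.06 to 0.19). It was among 7 of 45 members compared on both days whose intervals lay on opposite sides of 0 at day 0 and day 8, or 15.6%, beside 23.2% of 6763 genes. Among the 7 members that lay past 2-fold on day 0, 2 or 8, the largest ratio at day 4 in either direction was that of Maml3, -0.25.

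**Figure D3:**
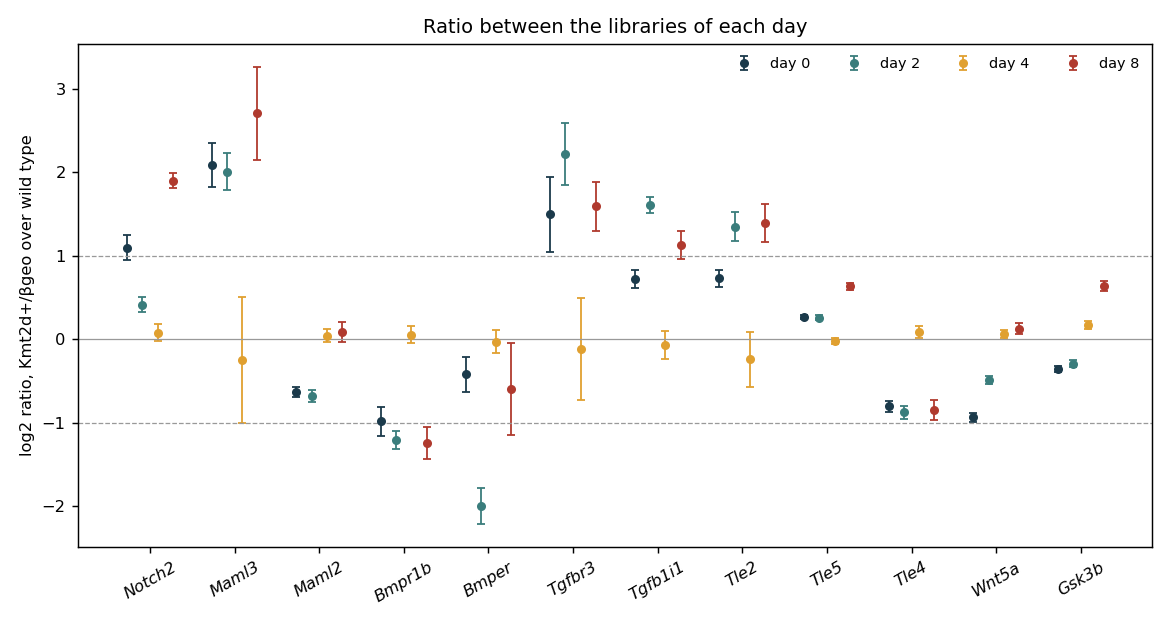
Difference between genotypes on each day, as a log2 ratio with Kmt2d+/βgeo in the numerator (vertical axis), for 12 members on days 0, 2, 4 and 8, each from 1 library per side, with 95% counting intervals. Dashed lines mark 2-fold; day 4 points lie near 0 for every member shown, while Maml3, Tgfbr3 and Tle2 lie above 0 and Bmpr1b and Tle4 below 0 on the other days.

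At day 0, cells could be told apart by genes outside the pathways. After thinning to 3000 UMIs, cells with an Olig2 UMI and no Sox9 UMI numbered 1953 in Kmt2d+/βgeo and 1908 in wild type, and cells with Sox9 and no Olig2 numbered 487 and 398. Olig2 marks the oligodendrocyte lineage and some progenitors, and Sox9 marks progenitors and astrocytes. Of 48 members compared, 0 lay 2-fold apart in both libraries, beside 0.071% of 7047 genes. Smad5 was higher in Olig2 cells, with log2 ratios of 0.50 (0.25 to 0.76) and 0.43 (0.18 to 0.68). Id3 (-0.47, -0.60 to -0.34, and -0.26, -0.43 to -0.09) and Ptch1 (-0.54, -0.93 to -0.14, and -1.05, -1.43 to -0.67) were higher in Sox9 cells. For the other 45 members the interval included 0 in at least 1 library or the signs differed. By intervals alone, 1.73% of all genes compared were higher in Olig2 cells and 1.72% in Sox9 cells in both libraries, beside 2.08% and 4.17% of members. These intervals take the variance of counts over cells as equal to the mean. For thinned Id3 counts at day 0 the variance was 3.52 times the mean in Kmt2d+/βgeo and 2.80 times in wild type. The Id3 intervals are therefore too narrow, and its place among these members is uncertain.

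Top2a, a topoisomerase gene of dividing cells, gave the other split, into 1603 and 1617 cells with a UMI and 2703 and 3240 without. Of 48 members 0 passed 2-fold in both libraries, beside 2.05% of 7008 genes. Gli3 came closest, at 0.0805 thinned UMIs per cell in Top2a-positive and 0.0422 in Top2a-negative Kmt2d+/βgeo cells, and at 0.0674 and 0.0330 in wild type. The log2 ratios were 0.93 (0.56 to 1.31) and 1.03 (0.63 to 1.43). Tgfb2 (-0.55 and -0.55), Tgfb1i1 (-0.48 and -0.81), Tle2 (-0.35 and -0.74), Smad5 (-0.37 and -0.29) and Id3 (-0.30 and -0.11) were lower in Top2a-positive cells with intervals below 0 in both. These 5 are 10.4% of members, beside 11.1% of all genes compared, and Gli3, the 1 member higher by that rule, is 2.08%, beside 14.4%. As in the other split, the intervals of Id3 are too narrow, so its place among the 5 is uncertain. Notch1, Wnt5a and Ctnnb1 had ratios between -0.07 and 0.13. A cell without a UMI at this depth may still express the gene, so both splits are coarse.

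**Figure D4:**
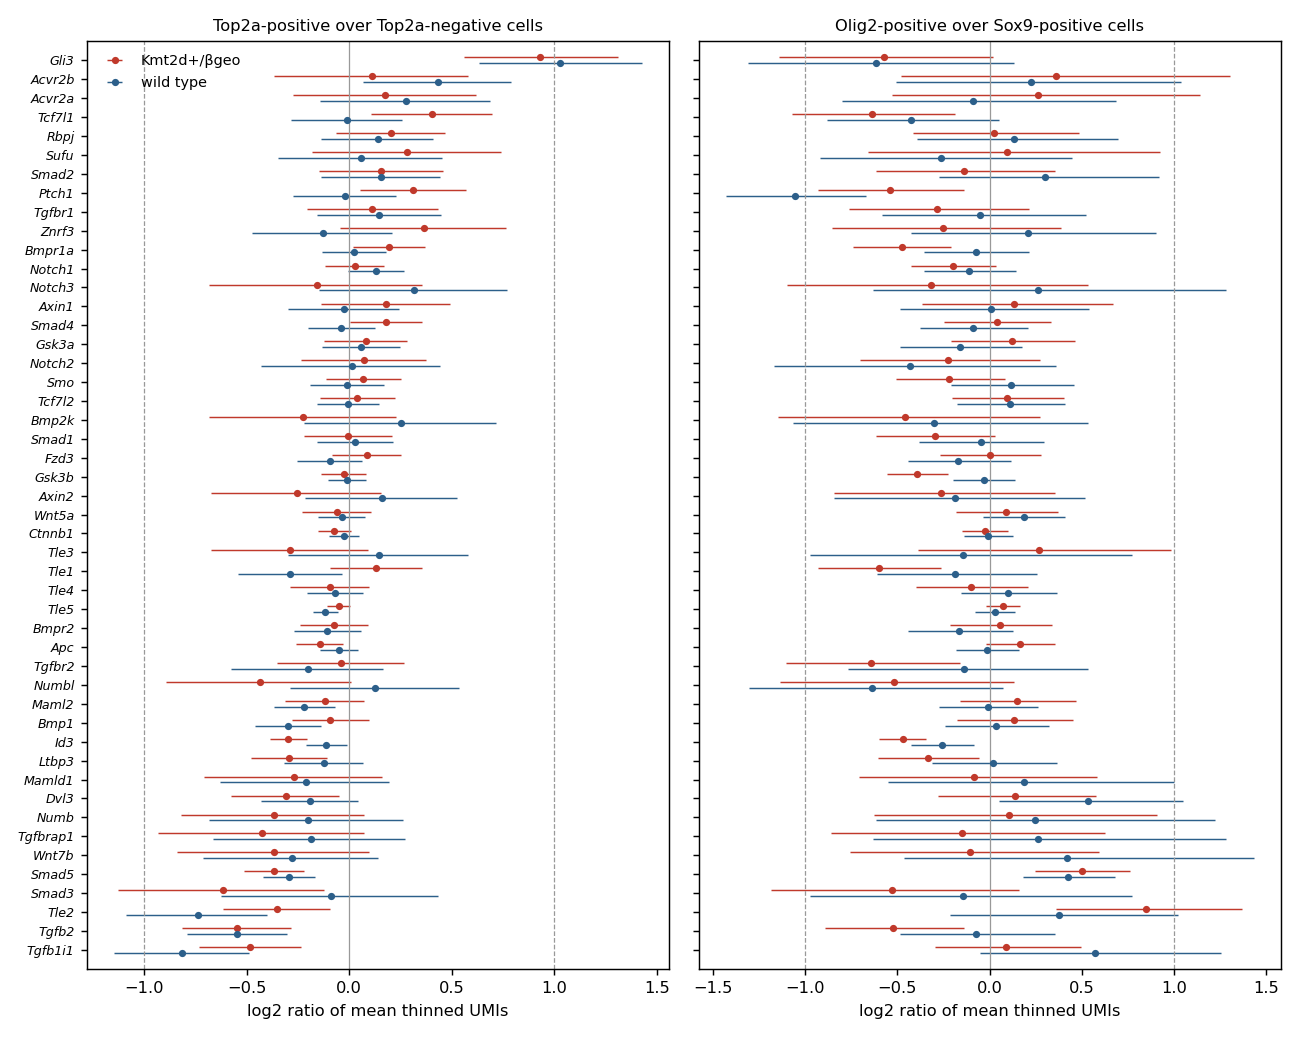
Log2 ratio of mean thinned UMIs at day 0 (horizontal axes) for each member compared, Top2a-positive over Top2a-negative cells (left) and Olig2 over Sox9 cells (right), in Kmt2d+/βgeo (red) and wild type (blue) with exact 95% conditional intervals. Dashed lines mark 2-fold; Gli3 lies farthest right in the left panel, and most intervals in both panels include 0.

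Counts of most members scattered over cells little more than random counting does, with 1 exception. For the 19 members with a mean of at least 0.5 in every library, the ratio of variance to mean of thinned counts (the Fano factor, 1 for purely random counting) was taken in each library. It lay between 2.80 and 5.20 for Id3, which encodes an inhibitor of neurogenic transcription factors, and between 0.977 and 1.45 for the other 18. Wnt5a had the next highest values, 1.22 to 1.45. At well under 1 thinned UMI per cell, as for most of these members, differences in level between cells raise this factor little. A value near 1 therefore does not show that a member is evenly expressed over cells. Gsk3b had nearly the same mean level as Id3 over the libraries, yet 46.8% to 65.8% of thinned cells had a Gsk3b UMI and 26.3% to 43.4% an Id3 UMI. The 10% of cells richest in Id3 held 52.8% to 68.8% of its UMIs, and for Gsk3b this was 30.5% to 37.3%. Single cells reached 16 to 24 Id3 UMIs of 3000. The level of Id3 was 3.22, 2.81, 1.89 and 2.90 in Kmt2d+/βgeo and 2.24, 2.63, 1.83 and 2.77 in wild type, lowest at day 4 in both.

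**Figure D5:**
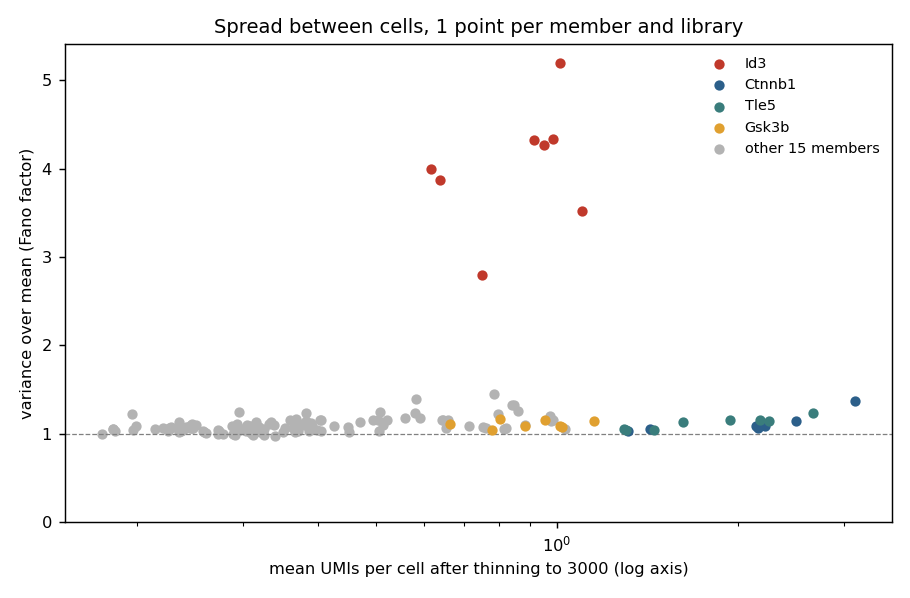
Variance over mean of thinned UMI counts across cells (vertical axis, from 0) against mean thinned UMIs per cell (horizontal log axis) for 19 members, 1 point per member and library. Id3 (red) lies between 2.80 and 5.20 and every other member lies near the dashed line at 1.

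Correlations of members from cell to cell were low, as counts this sparse would make them in any case. Among 171 pairs of these 19 members, 0 had a Pearson correlation of log2 values of at least 0.2 in every library, with or without thinning. Over all pairs and libraries correlations lay between -0.17 (Id3 and Wnt5a) and 0.18 (Notch1 and Wnt5a). Cells of 1 library share its depth and counts are sparse, so these are a description only. Where the Fano factor is near 1, most of the spread of a count is counting error, which holds correlations down. A threshold of 0.2 may then be out of reach, so the low values do not show that levels of the members vary apart.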

How the data were processed

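Single-cell RNA sequencing libraries of cultured mouse hippocampal NPCs were grouped by the genotype and day in the labels, with 1 library for each of 8 groups and 30408 cells in all. The authors deposited log2 values of counts scaled to 1 total per cell plus 1, for 9140 genes, and a table of cells with estimated counts of total UMIs. The submitters' processing notes name alevin, Salmon 1.3.0, Seurat 3.2.2 and build GRCm38. The methods describe a filter for quality and doublets for the hippocampal data set, of which the paper analysed day 0 cells only. They do not say whether cells of later days were filtered alike. No further filter on cells was applied here.

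Log2 values were turned back into normalised counts. These were divided by the most frequent value in their cell, which was taken as 1 UMI. Of the estimated UMIs this gave, 86.8% lay within 0.01 of a whole number. Levels were means over cells. A gene was compared where its mean was at least 0.1 in either library, or 0.03 thinned UMIs in either class of cells, and a member was called at 2-fold in both genotypes or libraries, or between the genotypes of 1 day. Ratios were taken over all genes and no test was run, because each group was 1 library. Cells were thinned to 3000 UMIs for shares, classes and Fano factors, leaving out shallower cells. Intervals at 95% were Poisson for counts, exact binomial for shares and conditional for classes. The scripts were tested on simulated data, with Python 3.11.15, NumPy 2.4.6, SciPy 1.17.1 and pandas 2.3.3.

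Members and lists were chosen with earlier results of these data known. Genes were named where they passed 2-fold over days or, with 1 sign on at least 2 of days 0, 2 and 8, between genotypes, where they led their role group, where a list of well-known pathway genes held them, or as the 2 largest changes of each list of other pathway genes. Tgfbr3, Bmper, Acvr2b, Tle3, Tle4, Maml1, Maml2, Znrf3, Csnk1e, Gsk3a, Wnt5a, Tgfb1i1 and Bmp1 were named after their values were seen, where that rule did not reach them. Alternatives covered the scale, the minimum, thinning, recentring, the most abundant genes and the threshold, and leaving out shallow cells was added after seeing the data.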

Additional observations from a re-analysis of the deposited data

Results flagged for a closer look

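For 8 of 52 members compared, day 8 over day 0 had opposite signs in the 2 genotypes with both counting intervals clear of 0, beside 7.29% of all genes. None of these differences was tested, since each rests on 1 library per group, and thus on 4 libraries in all. Between day 0 and day 8, the log2 ratio in Kmt2d+/βgeo less that in wild type was -0.46 for Id3 (-0.15 against 0.31), -0.82 for Tle1 (-0.61 against 0.21), 0.4 for Tcf7l1 (0.22 against -0.19), 0.41 for Tgfb1i1 (0.17 against -0.25) and 0.99 for Gsk3b (0.78 against -0.21). These 5 kept opposite signs after thinning, with recentred ratios, without the 20 most abundant genes and without shallow cells. The differences were 0.72 for Maml2 (0.15 against -0.57), 0.35 for Apc (0.12 against -0.23) and 0.3 for Smad4 (0.12 against -0.19), and these 3 did not keep them, since after thinning the Kmt2d+/βgeo ratios were -0.04, -0.04 and -0.11.

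The same 4 libraries give the change in the genotype ratio from day 0 to day 8, so a gene named in both sets is 1 observation. The log2 ratio of Kmt2d+/βgeo over wild type had opposite signs on these days, with both counting intervals clear of 0, for 7 of 45 members compared on both, or 15.6%, where 23.2% of 6763 genes did. Under each of those alternatives the 7 had opposite signs too, but counting intervals were not considered there. Acvr2a lay at 0.14 at day 8 without shallow cells and at -0.07 at day 0 after thinning. Gsk3b at day 8 lay at 0.39 after thinning and at 0.40 without shallow cells. Day 8 less day 0 was 1.06 for Wnt5a (0.13 against -0.93), 0.99 for Gsk3b (0.63 against -0.36), 0.51 for Acvr2a (0.33 against -0.18), 0.46 for Ctnnb1 (0.31 against -0.15), 0.45 for Bmpr1a (0.21 against -0.24), 0.4 for Tcf7l1 (0.25 against -0.15) and -0.82 for Tle1 (-0.47 against 0.36).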

How the results depend on the processing

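Within a contrast no paired analysis was possible, because its groups, of 1 library each, share fewer than 2 replicate numbers. No replicate could be left out. The genotypes could be paired by day across the 8 libraries only by taking days as replicates, which the labels do not make them. No such model was fitted. As differences of mean log2 values, 0 members lay 1 log2 unit apart for day 8 over day 0, for day 2 over day 0 and between genotypes on days 0, 2 and 8, in place of 11, 6, 2, 5 and 5. Members with mean counts below 1 in both libraries could not do so on that scale, whatever their fold. With a minimum mean of 0.5 the counts were 4, 2, 0, 2 and 2, out of 25, 25, 20, 28 and 26 members compared. With a threshold of 1.5-fold they were 22, 13, 8, 9 and 14. No share of all genes was taken at these settings, so the counts show only how the calls depend on the setting. Of the 22, 18 were higher and 4 lower at day 8, and of the 8, 4 were higher and 4 lower in Kmt2d+/βgeo, where both of those past 2-fold were higher. With no minimum mean the count between genotypes at day 0 was 4. The remaining counts stayed within 1.5 times of the main ones. Without shallow cells, an alternative chosen after seeing the data, 9 members passed at day 8. Tgfbrap1 lay at 0.97 and 1.05, and Acvr1b at 1.90 and 1.53 dropped out because its wild-type day 8 mean of 0.0998 was under the minimum. Between genotypes at day 4 and between the classes of cells the count was 0 in every setting run. Of 104 day 8 and day 0 comparisons of a member in 1 genotype, the share of cells with a UMI changed in the direction of the mean level in 62 before thinning and in 97 after it. Depth limits the scarcest members: Maml3 rests on 27 to 37 UMIs in the day 4 libraries and the wild-type day 8 library.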
